A study of Mus musculus with 12 samples.

Results

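Hyperplasia, the earliest histologic change of the tongue in this carcinogen model, was compared with normal tongue epithelium across 24477 genes in 6 mice, 3 with hyperplasia and 3 normal, out of 12 mice in the series. The samples were chosen by the stage written in their titles, and no measured value entered that choice. All mice were males of the CBA strain. For 8 weeks the hyperplasia mice drank water with 4-nitroquinoline 1-oxide (4-NQO) at 100 ug/mL. The normal mice were untreated controls. Their ages on the labels were 24, 12 and 20 weeks for normal 1, 2 and 3, and 20, 16 and 20 weeks for hyperplasia 1, 2 and 3. Epithelial cells were cut from frozen tongue sections with a laser, and 1 array was hybridized per mouse. The stage was set by histology, on thickening of the keratinized layer in cells that were not atypical, so that a hyperplasia sample was a selected lesion and not the whole treated epithelium. The 3 dysplasia and 3 tumor mice of the same 4-NQO group enter here only through the shared estimate of the spread and as values side by side. On the labels, dysplasia 1, 2 and 3 were 16, 24 and 16 weeks old, and tumor 1, 2 and 3 were 20, 16 and 24 weeks old.

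4-NQO is reduced in cells to a metabolite that forms bulky adducts on DNA, and its redox cycling also yields reactive oxygen. The upper surface of the mouse tongue is covered by filiform papillae, hair-like spines built by keratinocytes that make hard keratins and keratin-associated proteins, while the epithelium between them follows the soft esophageal type of keratinization with Krt4 and Krt13. Injured or hyperproliferative squamous epithelium switches on stress keratins (Krt6, Krt16, Krt17), calprotectin and small proline-rich proteins.

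The arrays were closely alike in scale. Medians of the log2 values were 6.19 to 6.35 in normal and 6.22 in each hyperplasia sample, and Pearson's r across genes was 0.945 to 0.96 among normal, 0.955 to 0.962 among hyperplasia and 0.923 to 0.959 between the groups. Keratinocyte markers were high in all 6 samples: Krt5 lay at 11.81 to 12.36, Krt14 at 12.05 to 12.57, Trp63 at 10.25 to 10.61 and Krt13 at 12.92 to 13.28. Skeletal muscle genes were present as well, at a mean of 8.81, 6.12 and 7.87 in normal and 8.46, 7.82 and 6.35 in hyperplasia 1, 2 and 3, so they varied between mice of a group rather than with the group. The study's supplementary sample table lists a preparation day for each sample, and none is shared by any pair of these 6, so preparation day and group cannot be told apart. Values are log2 expression values, on which a difference of 1 is a doubling, and values near 3 lie at the 5th percentile of an array, where signal and background are hard to separate.

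Few genes passed the test between hyperplasia and normal epithelium, but those that did moved far. With limma, a linear model with a moderated spread, fitted over the 12 arrays and adjusted by Benjamini-Hochberg over all genes, 5 genes rose (0.0204% of those tested) and 11 fell (0.0449%), 16 in all (0.0654%). The rule of the study's methods, a difference of means over 1 with no test, was met by 273 genes upwards (1.12%) and 404 downwards (1.65%). In 1733 genes (7.08%) all 3 hyperplasia values lay above all 3 normal values and in 2193 (8.96%) they lay below. Every later count of list members above or below all normal mice is to be read beside these shares. At an unadjusted limma p under 0.05 there were 997 genes upwards (4.07%) and 1393 downwards (5.69%). With 3 mice a group, the smallest p of an exact permutation test would be 0.1.

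The mice of the hyperplasia group did not contribute equally. Of the 273 genes over 1 upwards, 190 (69.6%) were beyond the normal range in all 3 mice, 62 in 2 mice, 17 in 1 mouse and 4 in none. Of the 404 downwards, the numbers were 276 (68.3%), 107, 17 and 4. Hyperplasia 2, the mouse of 16 weeks, stayed within the normal range for 82 of the downward genes, against 31 in hyperplasia 1 and 39 in hyperplasia 3. The median fall of these genes from the normal mean followed the same order, at -1.07 in hyperplasia 2 and -1.6 and -1.4 in hyperplasia 1 and 3. Among the normal mice, normal 3 was the one nearest to hyperplasia for 233 of the 404 genes.

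**Figure D1:**
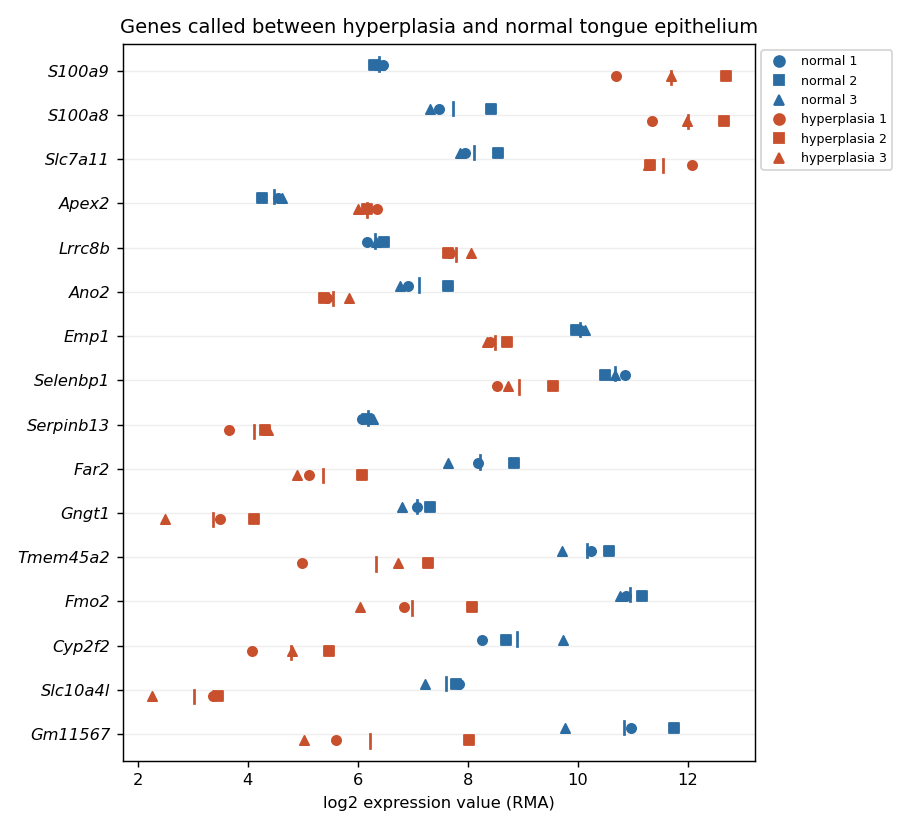
Log2 expression values (RMA) of the 16 genes called by limma, with 1 point per mouse, normal in blue and hyperplasia in orange; short vertical lines are group means. In every gene the 3 hyperplasia mice lie apart from the 3 normal mice, from a gap of 0.93 in Ano2 to 4.24 in S100a9.

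Among the called genes, the largest rises were those of S100a9 and S100a8, neighbours on chromosome 3 that encode the subunits of calprotectin, a calcium- and zinc-binding protein of stressed keratinocytes and neutrophils. S100a9 stood at 6.45, 6.30 and 6.41 in normal 1, 2 and 3 and at 10.69, 12.69 and 11.70 in hyperplasia 1, 2 and 3. S100a8 stood at 7.48, 8.42 and 7.31 in normal and at 11.35, 12.66 and 11.99 in hyperplasia. Both genes were thus highest in hyperplasia 2 and lowest in hyperplasia 1, and the groups were far apart. S100a9 rose 39.6-fold, by 5.31 (standard error 0.39, limma adjusted p = 0.000237), and S100a8 19.3-fold, by 4.27 (standard error 0.34, limma adjusted p = 0.00027). The other S100 genes did not move with them: of 16 S100 proteins measured, these 2 rose, none fell, and the median difference was -0.11, beside -0.04 over all genes. Of 18 neutrophil genes none passed the test, their median difference was -0.07, and their mean was 5.58 to 5.88 in normal and 5.68 to 5.79 in hyperplasia. Ly6g, the surface marker of mouse neutrophils, was at 6.35, 5.63 and 3.99 in normal and at 4.82, 4.98 and 4.53 in hyperplasia. In tissue RNA, more cells of a type and more RNA per cell cannot be told apart.

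The promoter windows of these genes in RefSeq (GRCm38.p6, 250 bases before to 50 after the start) are shown because the pair led the response. They were searched on both strands for TGAGTCA, the site of AP-1, and for TGACNNNGC, the core of the antioxidant response element to which NRF2 binds. Over 32851 windows of this length, 5.2% hold the AP-1 letters and 12.4% the antioxidant core. Neither window holds either motif. S100a9 lies at chr3:90695672-90695971 on the minus strand and S100a8 at chr3:90668821-90669120 on the plus strand.
S100a9: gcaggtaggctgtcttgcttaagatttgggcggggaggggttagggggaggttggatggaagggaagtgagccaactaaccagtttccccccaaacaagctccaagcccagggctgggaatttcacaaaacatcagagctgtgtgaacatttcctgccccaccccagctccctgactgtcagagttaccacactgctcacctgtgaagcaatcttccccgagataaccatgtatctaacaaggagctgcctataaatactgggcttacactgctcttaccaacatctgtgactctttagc
S100a8: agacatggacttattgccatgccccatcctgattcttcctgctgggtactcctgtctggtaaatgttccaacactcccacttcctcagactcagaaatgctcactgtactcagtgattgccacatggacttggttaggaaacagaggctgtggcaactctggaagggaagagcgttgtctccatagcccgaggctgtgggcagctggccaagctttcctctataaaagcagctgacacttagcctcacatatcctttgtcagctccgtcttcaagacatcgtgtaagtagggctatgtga

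Slc7a11, the light chain of the cystine-glutamate exchanger that supplies cysteine for glutathione, had the next largest difference among the called rises. It stood at 7.95, 8.54 and 7.85 in normal and at 12.08, 11.31 and 11.27 in hyperplasia, with all hyperplasia mice near one another and well above the normal mice. It rose 10.9-fold, by 3.44 (standard error 0.49, limma adjusted p = 0.0254). Its partner chain and the enzyme subunits of glutathione synthesis lay above all normal mice in every hyperplasia mouse without passing the test. Slc3a2, the heavy chain of the exchanger, was at 8.93, 8.65 and 9.56 in normal and at 10.87, 10.34 and 10.40 in hyperplasia (difference 1.49, limma adjusted p = 0.18). The subunits of glutamate-cysteine ligase, which makes the first bond of glutathione, differed by 2.09 in the catalytic Gclc (8.52, 8.43 and 8.22 against 11.23, 10.37 and 9.85, limma adjusted p = 0.37) and by 1.43 in the modifier Gclm (9.58, 9.38 and 10.07 against 11.38, 10.70 and 11.24, limma adjusted p = 0.15). Of 28 genes of cystine, glutathione and thioredoxin, 1 rose and none fell, 6 were over 1 upwards and 1 downwards, and 11 lay above and 1 below all normal mice. The median difference of the list was 0.40.

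The promoter windows of Slc7a11 and Gclm are shown as the called gene and the member with a match on this route. Slc7a11 (chr3:50443564-50443863, minus strand) holds neither motif. Gclm (chr3:122245307-122245606, plus strand) holds 1 antioxidant core on the minus strand, in capitals, whose first base is 134 bases before the start. Of 26 genes of the list with a window, 6 (23.1%) hold the core, and of 24 genes of the list of NRF2 regulators and NADPH supply, 8 (33.3%), beside 14% over all 27025 genes with a window. A match of letters is a description and does not show binding.
Slc7a11: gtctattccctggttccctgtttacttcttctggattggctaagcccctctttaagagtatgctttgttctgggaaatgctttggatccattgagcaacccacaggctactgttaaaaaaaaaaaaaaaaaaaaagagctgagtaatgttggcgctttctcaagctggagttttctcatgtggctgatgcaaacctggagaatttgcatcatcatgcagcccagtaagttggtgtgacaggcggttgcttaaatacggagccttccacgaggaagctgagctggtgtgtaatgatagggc
Gclm: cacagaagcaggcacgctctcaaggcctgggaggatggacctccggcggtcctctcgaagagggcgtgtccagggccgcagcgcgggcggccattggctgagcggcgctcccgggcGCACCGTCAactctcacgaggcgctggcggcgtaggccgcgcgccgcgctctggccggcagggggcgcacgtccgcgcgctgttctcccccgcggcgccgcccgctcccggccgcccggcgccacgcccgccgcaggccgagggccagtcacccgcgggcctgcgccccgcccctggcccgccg

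Genes that supply NADPH for the reduction of glutathione and quinones lay mostly on the same side. Of 28 regulators and NADPH genes none passed the test, 10 lay above all normal mice and none below, and the median difference was 0.50, or 0.28 without hyperplasia 1. Tkt, transketolase of the pentose phosphate pathway, was at 9.28, 9.31 and 9.38 in normal and at 10.32, 10.04 and 10.24 in hyperplasia (difference 0.88, limma adjusted p = 0.28), and Taldo1, transaldolase, differed by 0.82 (limma adjusted p = 0.42). Hyperplasia 1 was the highest mouse for Taldo1, Gclc and Mgst1, a microsomal glutathione transferase, at 10.39, 11.23 and 10.89. Nfe2l2, which encodes NRF2 itself, was at 11.06 to 11.50 in normal and 11.23 to 11.46 in hyperplasia. Nqo1, a quinone reductase, overlapped between the groups through hyperplasia 3, at 9.92 against 9.60 to 10.03 in normal. Hmox1, heme oxygenase, overlapped too, at 9.19 to 10.76 in normal and 9.71 to 10.49 in hyperplasia.

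**Figure D2:**
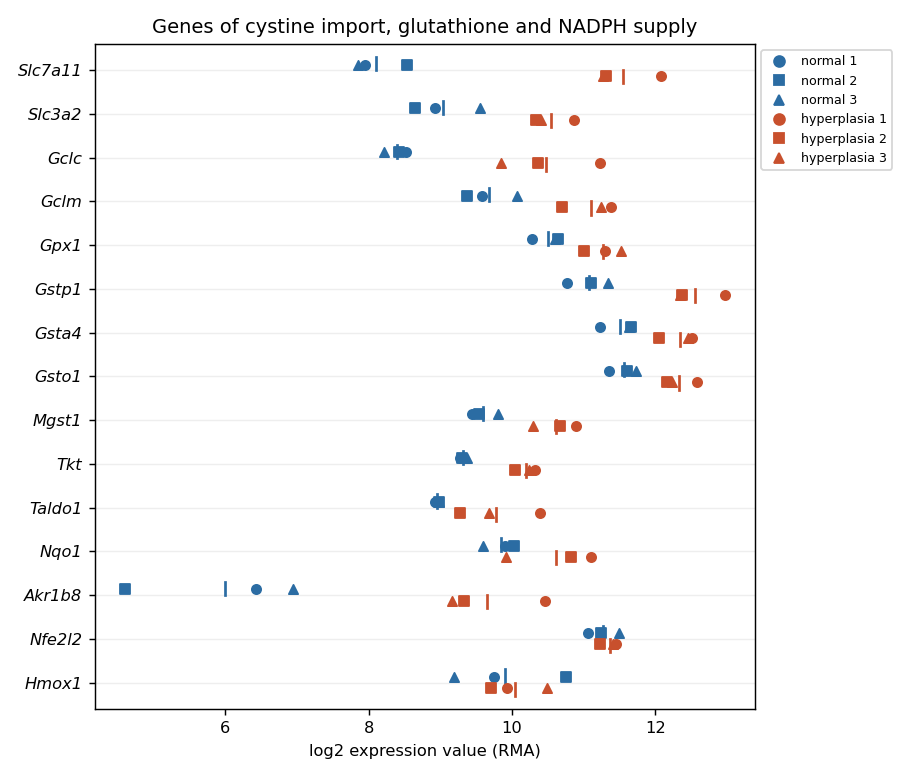
Log2 expression values (RMA) of 15 genes of cystine import, glutathione and NADPH supply, with 1 point per mouse, normal in blue and hyperplasia in orange; short vertical lines are group means. Slc7a11 is the gene called by limma; Gclc and Gclm lie apart in all mice, while Nfe2l2, Hmox1 and Nqo1 overlap.

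Lrrc8b and Apex2 were the other called rises. Lrrc8b, a subunit of the volume-regulated anion channel, was at 6.17, 6.47 and 6.33 in normal and at 7.68, 7.64 and 8.05 in hyperplasia, and rose 2.77-fold, by 1.47 (standard error 0.21, limma adjusted p = 0.0267). The next family member on chromosome 5, Lrrc8c, was at 5.32, 5.24 and 6.56 in normal and at 7.04, 6.94 and 7.90 in hyperplasia (difference 1.59, limma adjusted p = 0.265), so both lay above all normal mice. Lrrc8d, next on the same chromosome, overlapped between the groups at 6.91 to 6.95 and 6.69 to 7.49. The obligatory subunit gene Lrrc8a differed by 0.28 and Lrrc8e by -0.49. Apex2, an endonuclease that cuts DNA at sites without a base, was at 4.54, 4.26 and 4.62 in normal and at 6.34, 6.16 and 6.01 in hyperplasia, and rose 3.24-fold, by 1.70 (standard error 0.23, limma adjusted p = 0.0246). Apex1, the main enzyme of that kind, was at 7.53, 7.70 and 8.32 against 8.76, 8.12 and 8.56 (difference 0.63, limma adjusted p = 0.471). Lrrc8b (chr5:105415525-105415824, plus strand) is the called rise whose promoter window holds both motifs, shown in capitals. The AP-1 letters begin 220 bases and the antioxidant core, on the minus strand, 9 bases before the start.
Lrrc8b: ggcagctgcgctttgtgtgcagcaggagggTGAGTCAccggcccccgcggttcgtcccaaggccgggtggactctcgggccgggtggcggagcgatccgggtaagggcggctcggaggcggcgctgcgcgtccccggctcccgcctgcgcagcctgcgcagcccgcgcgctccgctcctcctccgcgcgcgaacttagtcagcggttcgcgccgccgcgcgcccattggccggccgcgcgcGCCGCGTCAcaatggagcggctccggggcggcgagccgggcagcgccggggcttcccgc

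Among the 11 genes that fell, 2 dropped from a middling level to the bottom of the array. Slc10a4l, annotated in RefSeq as a transcribed pseudogene, was at 7.83, 7.78 and 7.22 in normal and at 3.36, 3.45 and 2.25 in hyperplasia, and fell by 4.59 (standard error 0.39, limma adjusted p = 0.000378). Gngt1, the gamma subunit of transducin, known from rod photoreceptors, was at 7.08, 7.32 and 6.80 in normal and at 3.49, 4.12 and 2.50 in hyperplasia, and fell by 3.70 (standard error 0.35, limma adjusted p = 0.00104). Hyperplasia 3 was the lowest mouse for both. The 5th percentile of the hyperplasia arrays was 3.03 to 3.1, so the size of these falls is bounded by background.

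Among the other falls were 4 genes of enzymes or related proteins. Cyp2f2, a cytochrome P450 best known for activating naphthalene in mouse airway cells, was at 8.25, 8.69 and 9.73 in normal and at 4.08, 5.47 and 4.81 in hyperplasia, and fell 17.2-fold, by 4.11 (standard error 0.48, limma adjusted p = 0.0073). Fmo2, a flavin monooxygenase, was at 10.88, 11.17 and 10.77 in normal and at 6.84, 8.08 and 6.04 in hyperplasia, and fell 15.5-fold, by 3.96 (standard error 0.54, limma adjusted p = 0.0246). All 3 hyperplasia values of Cyp2f2 lay below the array median of 6.22, and that of hyperplasia 3 for Fmo2. Far2, which reduces fatty acyl-CoA to fatty alcohols, was at 8.19, 8.83 and 7.63 against 5.11, 6.08 and 4.90 and fell by 2.85 (standard error 0.40, limma adjusted p = 0.0252). Selenbp1, a selenium-binding protein with methanethiol oxidase activity, was at 10.85, 10.50 and 10.68 against 8.53, 9.55 and 8.72 and fell by 1.74 (standard error 0.27, limma adjusted p = 0.0445).

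Most other phase I genes did not fall as far as Cyp2f2 and Fmo2, but more of them lay lower than higher. Of 39 phase I genes these 2 fell and none rose, and 3 were over 1 downwards and 1 upwards. Below all normal mice lay 11 and above them 4, where 8.96% and 7.08% of all genes did. At an unadjusted limma p under 0.05 there were 10 downwards and 2 upwards, beside 5.69% and 4.07% of all genes. Differences were negative in 24 and positive in 15, and the median was -0.13, or -0.25 without normal 2. Fmo9, another flavin monooxygenase gene of chromosome 1, was at 6.53, 8.25 and 7.48 in normal and at 5.28, 5.44 and 5.03 in hyperplasia (difference -2.17, limma adjusted p = 0.118). Cyp4b1 and Cyp2b19, a keratinocyte P450, each differed by -0.88. On the other side stood Adh7, a retinol- and ethanol-oxidizing dehydrogenase of the upper digestive tract, at 9.73, 9.99 and 9.46 in normal and 12.15, 11.28 and 10.68 in hyperplasia (difference 1.64, limma adjusted p = 0.503). Akr1b8, an aldo-keto reductase that clears reactive aldehydes, was at 6.43, 4.60 and 6.95 against 10.46, 9.33 and 9.17 (difference 3.66, limma adjusted p = 0.135). Among 35 conjugating enzymes none passed the test. Above all normal mice lay 6 and below them 2, where 7.08% and 8.96% of all genes did. Gstp1, the pi-class glutathione transferase, was at 10.77, 11.11 and 11.34 against 12.97, 12.38 and 12.34 (difference 1.49, limma adjusted p = 0.188), and Gsta4 and Gsto1 differed by 0.84 and 0.77.

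The remaining called falls were genes of the differentiated epithelium or of unsure role. Serpinb13, a keratinocyte inhibitor of lysosomal cathepsins, was at 6.08, 6.17 and 6.28 in normal and at 3.65, 4.32 and 4.36 in hyperplasia and fell by 2.07 (standard error 0.24, limma adjusted p = 0.0073). Emp1, an epithelial membrane protein, was at 10.04, 9.97 and 10.12 against 8.40, 8.71 and 8.35 and fell by 1.56 (standard error 0.24, limma adjusted p = 0.0445). Both were tight within each group. Tmem45a2, a membrane protein gene, was at 10.24, 10.56 and 9.71 against 4.99, 7.27 and 6.73 and fell by 3.84 (standard error 0.55, limma adjusted p = 0.0254). Ano2, a calcium-activated chloride channel known from olfactory neurons, was at 6.91, 7.64 and 6.77 against 5.44, 5.38 and 5.84 and fell by 1.55 (standard error 0.24, limma adjusted p = 0.0497), the call nearest to the threshold. A window of Emp1 (chr6:135362681-135362980, plus strand) is shown as that of the called fall with both motifs. The antioxidant core on the minus strand begins 182 bases and the AP-1 letters 145 bases before the start. Another window of Emp1, at chr6:135367243-135367542, holds neither motif. Both motifs thus stood in a window of a gene that rose and of a gene that fell.
Emp1: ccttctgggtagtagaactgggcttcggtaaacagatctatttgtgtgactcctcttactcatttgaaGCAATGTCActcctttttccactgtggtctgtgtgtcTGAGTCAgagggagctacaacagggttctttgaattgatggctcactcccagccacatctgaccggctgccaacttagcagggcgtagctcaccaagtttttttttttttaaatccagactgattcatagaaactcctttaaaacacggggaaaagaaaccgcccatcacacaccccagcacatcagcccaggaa

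The calls rested unequally on single mice. S100a8, S100a9, Slc10a4l, Gngt1 and Serpinb13 passed in every limma fit tried in which they were tested, including each fit without 1 mouse. Without normal 1, normal 2, hyperplasia 1 or hyperplasia 3, 6, 6, 7 and 5 of the 16 calls were left, and without normal 3 and hyperplasia 2, 12 and 15. Over all 24 alternative fits the adjusted p of Slc7a11 ran from 0.00891 to 0.141, of Apex2 to 0.135, of Lrrc8b to 0.144, of Cyp2f2 to 0.0524 and of Ano2 to 0.193. Selenbp1 passed in 8 of the 24, with an adjusted p of up to 0.198, Emp1 in 9, with up to 0.195, and Ano2 in 9. None of the 16 differences changed its sign. Leaving out 1 mouse could not have changed it, since the groups did not overlap in any of these genes.

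Genes of the filiform papilla held the largest differences downwards. The 21 keratin-associated protein (Krtap) genes of chromosome 11, which encode the matrix between hard keratin filaments, had a median level of 10.64, 11.34 and 8.37 in normal and of 6.23, 8.43 and 4.97 in hyperplasia 1, 2 and 3. Of them, 16 were over 1 downwards, 9 lay below all normal mice, and the median difference was -3.32. Krtap4-2 was at 11.39, 11.34 and 10.36 in normal and at 4.27, 8.72 and 4.13 in hyperplasia (difference -5.33, limma adjusted p = 0.0677). Hyperplasia 2 thus kept much of the signal, being the highest hyperplasia mouse for 19 of the 21 genes, and normal 3 was the lowest normal mouse for 18. The 23 Krtap genes of chromosome 16, with a median normal level of 4.69, had a median difference of -0.30. Probe sets of near-identical Krtap genes can share signal, so members are not independent of one another.

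The called gene Gm11567 lies within this stretch of chromosome 11, beside Krtap9-1, in the RefSeq gene order. It was at 10.97, 11.74 and 9.77 in normal and at 5.61, 8.02 and 5.03 in hyperplasia, and fell 24.3-fold, by 4.60 (standard error 0.63, limma adjusted p = 0.0246). Gm11559, also beside Krtap9-1, and Gm11563, beside Krtap4-6, likewise stayed highest in hyperplasia 2. Gm11563 was at 11.65, 11.86 and 9.92 in normal and at 3.95, 8.84 and 4.09 in hyperplasia (difference -5.52, limma adjusted p = 0.0855).

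Hard keratins went with them. Of 15 hard keratins none passed the test, 10 were over 1 downwards and none upwards, 5 lay below all normal mice, and the median difference was -1.60. Krt34 was at 8.67 and 8.01 in normal 1 and 3, higher in normal 2, and at 5.76, 7.68 and 5.10 in hyperplasia (difference -2.72, limma adjusted p = 0.18), and Krt84, a keratin of filiform papillae and nail, was at 11.91, 12.06 and 11.44 against 9.07, 10.48 and 9.26 (difference -2.20, limma adjusted p = 0.373). The regulators of papilla and hair differentiation differed less, with a median of -0.27 over 16 genes, 6 of them below all normal mice. Bmp4, a ligand of that program, differed by -1.02, Dlx3 by -0.95, Lef1 by -0.92 and Hoxc13, which binds hard keratin genes, by -0.57. Without hyperplasia 2, limma called 17 genes higher and 56 lower. Of the lower genes, 10 were Krtap genes, 4 were the hard keratins Krt34, Krt39, Krt86 and Krt87, and 1 was Dsg4, the desmoglein of hair. That fit leaves out the hyperplasia mouse nearest to normal for most Krtap genes of chromosome 11 and hard keratins, so it adds no support for their falls. The age of hyperplasia 2 differs from that of the other hyperplasia mice, and the part of age was not tested within the group.

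**Figure D3:**
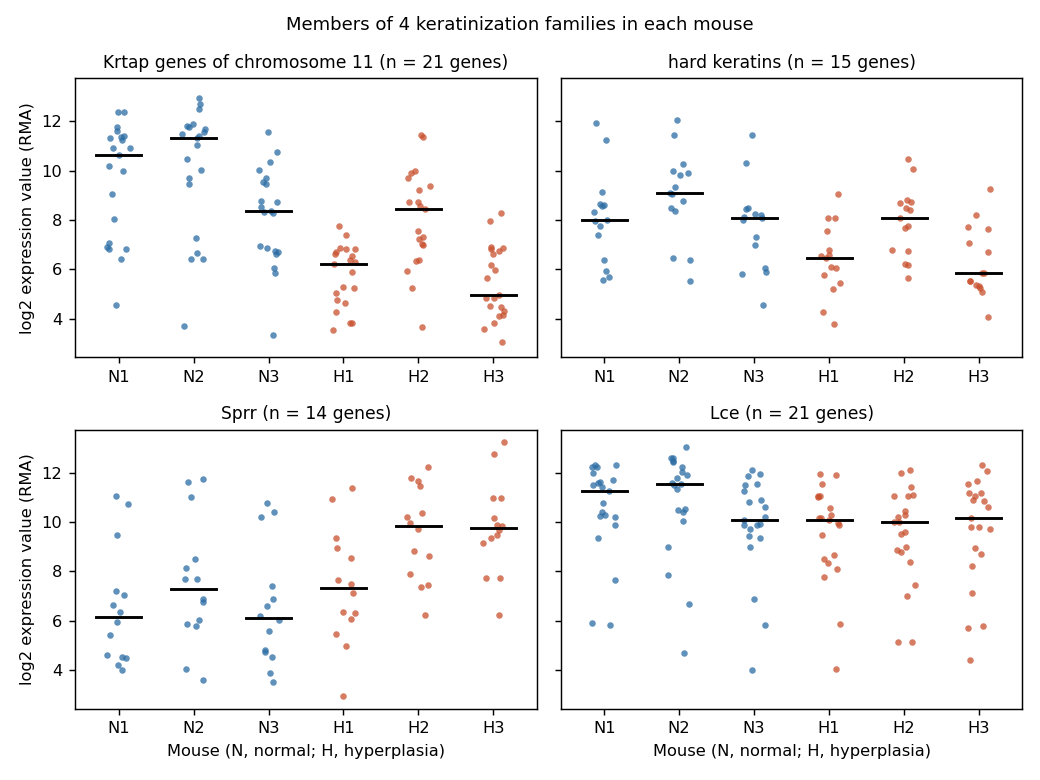
Log2 expression values (RMA) of each member of 4 families in normal mice 1 to 3 (N1 to N3, blue) and hyperplasia mice 1 to 3 (H1 to H3, orange); points are genes and black lines are medians. Krtap and hard keratin genes sit lowest in H1 and H3, with H2 near N3, whereas Sprr genes sit highest in H2 and H3.

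Soft keratins of the suprabasal layers also lay lower, and stress keratins higher. Of 11 suprabasal keratins none passed the test, 5 were over 1 downwards and 1 upwards, and 7 lay below all normal mice. Krt76, a keratin of the hard palate, gingiva and tongue, was at 12.07, 12.16 and 11.88 in normal and at 8.16, 10.67 and 8.46 in hyperplasia (difference -2.94, limma adjusted p = 0.333). Krt4, the major keratin of the spinous layer, kept 13.09 in hyperplasia 2, near the 13.11 to 13.30 of normal, and was at 11.91 and 12.03 in hyperplasia 1 and 3. Krt1, a keratin of skin-type cornification, was at 7.78, 7.47 and 6.32 against 9.30, 9.26 and 9.62 (difference 2.21, limma adjusted p = 0.26).

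Of 17 genes of the activated keratinocyte, 2 rose, the calprotectin genes, and none fell. Krt6b was at 11.53, 11.62 and 11.35 in normal and at 12.77, 12.12 and 12.77 in hyperplasia (difference 1.05, limma adjusted p = 0.118). Krt17 differed by 0.90 (limma adjusted p = 0.123) and Krt16 by 0.61 (limma adjusted p = 0.265), both above all normal mice, while Krt6a overlapped through hyperplasia 2. The basal keratins Krt5 and Krt14 differed by less than their standard errors, and the 17 genes of the basal layer had a median difference near 0.

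In the epidermal differentiation complex, a cluster of chromosome 3 that encodes most proteins of the cornified envelope, neighbouring families differed in opposite directions. Of 67 measured genes in RefSeq order from S100a1 to Tchhl1, 12 were over 1 upwards and 15 downwards, and the median was -0.34. The 14 small proline-rich (Sprr) genes, cross-linked early into the envelope, had a median difference of 1.88, with 10 over 1 upwards, 1 downwards and 6 above all normal mice. The 21 late cornified envelope (Lce) genes, some way further along, had a median of -0.96, with 10 over 1 downwards and 13 below all normal mice. All 10 were Lce1 genes. The Lce3 genes ranged from -0.55 in Lce3f to 0.82 in Lce3d, which alone among them lay upwards. Lce3a, at -0.25, lay below all normal mice. The Lce1 genes Lce1j and Lce1m stood near Lce3f, at -0.68 and -0.60. No Sprr or Lce gene passed the limma test. The median level of the Lce genes was 11.24, 11.52 and 10.09 in normal and 10.08, 9.98 and 10.18 in hyperplasia, so normal 3 stood near the hyperplasia mice.

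Sprr2d was at 4.52, 4.05 and 4.73 in normal and at 7.67, 11.76 and 10.97 in hyperplasia, the largest difference of any gene upwards (5.70, limma adjusted p = 0.0814). Sprr2i was at 4.60, 7.68 and 4.82 against 9.35, 10.37 and 10.95 (difference 4.52, limma adjusted p = 0.0718), and Sprr2f at 4.22, 3.59 and 3.90 against 4.96, 8.61 and 9.13 (difference 3.66, limma adjusted p = 0.249). Hyperplasia 1 was the lowest hyperplasia mouse for all 14 Sprr genes, and its median over them, 7.31, lay near the 7.28 of normal 2, against 9.84 and 9.76 in hyperplasia 2 and 3. Copies of Sprr2 and of Lce1 are much alike in sequence, so their probe sets may read one another.

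Proteins of the granular layer lay lower. Crnn, cornulin, a late marker of esophageal and oral differentiation, was at 10.38, 11.55 and 10.42 in normal and at 7.12, 8.67 and 7.86 in hyperplasia (difference -2.90, limma adjusted p = 0.0677). Flg, filaggrin, differed by -1.22 and Lor, loricrin, by -0.80, both below all normal mice. Cstb, cystatin B, an inhibitor of cathepsins from the list of desquamation proteases and their inhibitors, was at 10.01, 10.54 and 10.29 against 11.48, 11.51 and 11.21 (difference 1.12, limma adjusted p = 0.0718).

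**Figure D4:**
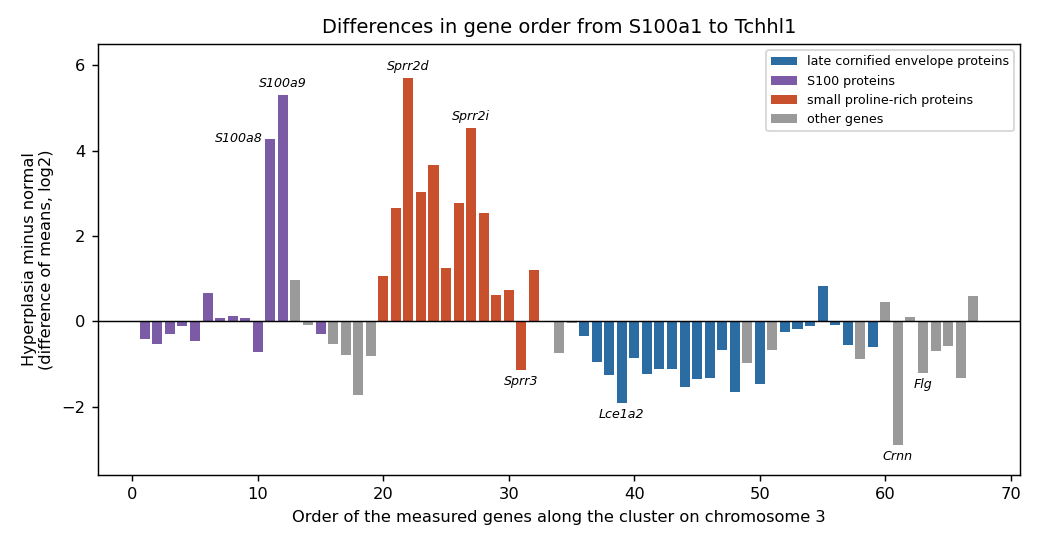
Difference of means, hyperplasia minus normal (log2), of 67 measured genes in their order along chromosome 3; each bar is a gene and colours mark families. S100a8, S100a9 and most of the Sprr block point upwards, to 5.70 in Sprr2d, and the Lce1 genes and Crnn (-2.90) downwards.

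Clade B serpins, inhibitors of proteases inside cells, lay mostly lower. Of 19 members 1 fell (Serpinb13), none rose, 5 were over 1 downwards and 1 upwards, 8 lay below and 2 above all normal mice, and the median was -0.38, or -0.64 without normal 2. Serpinb7, from the same cluster of chromosome 1, was at 8.41, 9.24 and 7.47 in normal and at 4.44 and 4.54 in hyperplasia 1 and 3, with hyperplasia 2 between the groups (difference -3.38, limma adjusted p = 0.0739). Serpinb1a, an inhibitor of neutrophil elastase, lay on the other side, at 6.89, 6.81 and 6.96 against 8.20, 7.75 and 8.28 (difference 1.19, limma adjusted p = 0.253). Among proteases of desquamation, Klk6 was at 4.70, 4.54 and 5.41 against 7.81, 6.87 and 6.65 (difference 2.22, limma adjusted p = 0.4). The membrane proteases Tmprss11a and Tmprss11b, both of chromosome 5, differed by -1.83 and 1.51.

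Genes of mitosis lay mostly higher. Of 35 genes of mitosis and G2/M none passed the test, but 34 differences were positive, 17 genes lay above all normal mice and none below, and the median was 0.51. The mean of the list was 7.63, 7.32 and 7.36 in normal and 7.80, 8.20 and 8.14 in hyperplasia, so hyperplasia 1 stood nearest to normal. Ube2c, which hands ubiquitin to the anaphase-promoting complex, was at 8.60, 8.58 and 8.63 in normal and at 9.86, 9.74 and 10.11 in hyperplasia (difference 1.30, limma adjusted p = 0.138). Top2a, the topoisomerase of dividing cells, differed by 1.11 (limma adjusted p = 0.18), Cenpa, the centromeric histone, by 1.14 and Cdk1 by 1.01, all above all normal mice. Mki67, the usual histologic marker of cycling, was at 8.73, 7.89 and 8.24 against 8.49, 9.35 and 9.10, and overlapped through hyperplasia 1.

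Replication and repair genes differed less. Of 39 DNA replication genes 35 differences were positive, 8 genes lay above all normal mice and none below, with a median of 0.25, or 0.39 without hyperplasia 1, and Rrm1, a subunit of ribonucleotide reductase, differed by 1.01. Apart from the rise of Apex2, the 54 DNA repair genes had a median of 0.08. Above all normal mice lay 6 and below them 4, near the 7.08% and 8.96% of all genes. Targets of p53, the factor that answers DNA damage, showed no shift, with a median of 0.09 over 28 genes. Cdkn1a, the p53-induced inhibitor of cyclin-dependent kinases, was at 11.81, 11.80 and 11.20 against 11.58, 11.44 and 11.43, and Gadd45a lay below all normal mice (difference -0.75, limma adjusted p = 0.245).

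**Figure D5:**
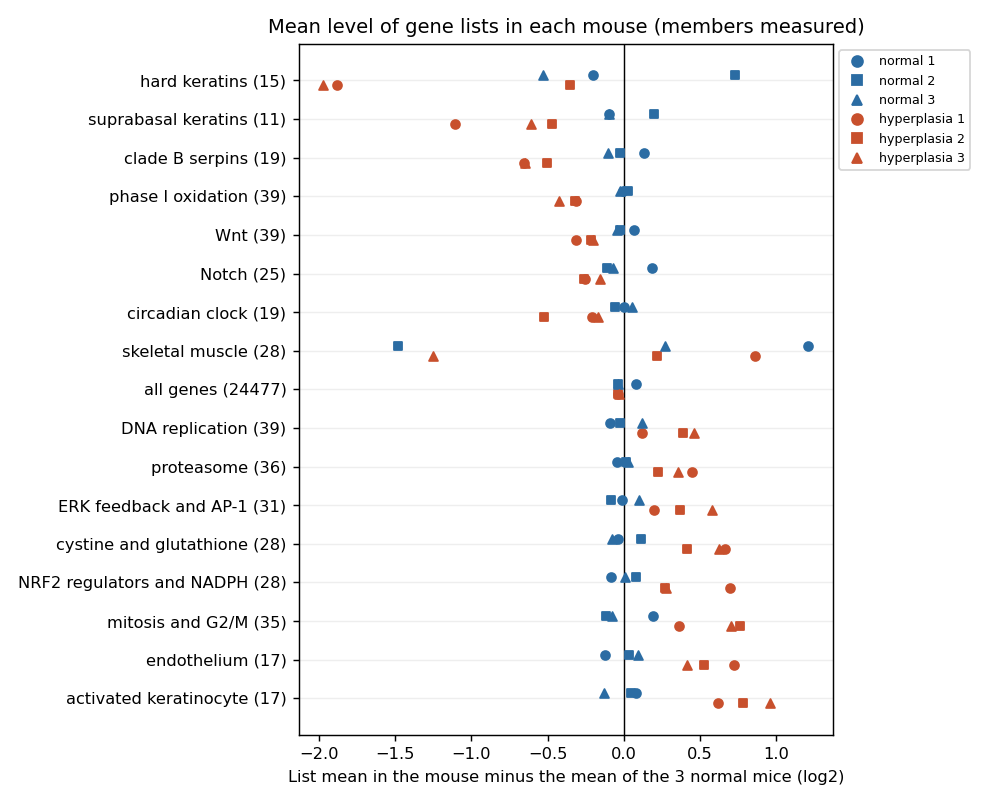
Mean log2 value of each gene list in a mouse minus the mean of the 3 normal mice, with normal in blue and hyperplasia in orange and the number of measured members in parentheses. In hard keratins hyperplasia 2 lies near normal, while the proteasome, glutathione and endothelium lists have all 3 hyperplasia mice to the right of the normal mice.

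Feedback and early response genes of ERK signalling lay higher in part, and most receptors and ligands of the EGFR family did not. Of 31 genes of ERK feedback and AP-1, 6 were over 1 upwards and none downwards, 9 lay above and 2 below all normal mice, and the median was 0.26. Fosl1, the AP-1 subunit Fra-1, was at 7.19, 5.63 and 5.85 in normal and at 8.27, 7.47 and 8.41 in hyperplasia (difference 1.83, limma adjusted p = 0.138). Dusp6, the phosphatase that turns off ERK, was at 7.31, 7.43 and 8.05 against 8.24, 8.80 and 9.17 (difference 1.14, limma adjusted p = 0.346), and Phlda1 and Ier3 differed by 1.14 and 1.18. Of 14 EGFR ligands and receptors none passed the test, and 1 was over 1 upwards and none downwards. The ligand gene Hbegf differed most upwards, by 1.18. Above all normal mice lay 1 and below them 3, where 7.08% and 8.96% of all genes did. The median was -0.27, or -0.10 without hyperplasia 2. The receptor genes Egfr and Erbb2 lay below all normal mice, by -0.47 and -0.43.

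Ptgs2, cyclooxygenase 2, the inducible enzyme of prostaglandin synthesis, had among the widest differences of all. It was at 5.13, 4.18 and 6.37 in normal and at 9.99, 7.10 and 10.32 in hyperplasia (difference 3.91, limma adjusted p = 0.11). Other genes of that route differed in both directions: Pla2g4e, a phospholipase, by 1.35, Slco2a1, the prostaglandin transporter, by 1.19, and Ptger3, a receptor of prostaglandin E2, by -1.13, each without overlap of the groups. Slc2a1, the glucose transporter Glut1, was at 9.93, 9.69 and 10.05 against 11.16, 10.82 and 11.51 (difference 1.27, limma adjusted p = 0.0718), while the 30 genes of hypoxia and glycolysis had a median of 0.07.

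Inflammatory mediators other than calprotectin differed moderately. Of 32 chemokine genes none passed the test, and 5 were over 1 upwards and none downwards. Above all normal mice lay 7 and below them 2, where 7.08% and 8.96% of all genes did. Ccl2, which attracts monocytes, was at 5.75, 6.32 and 6.37 in normal and at 7.28, 8.07 and 7.77 in hyperplasia (difference 1.56, limma adjusted p = 0.33). Il1b was at 4.91, 5.22 and 4.43 against 5.85, 6.55 and 6.21 (difference 1.35, limma adjusted p = 0.258), and Irak3, a brake on interleukin 1 receptors, differed by 1.07. Chil1, a chitinase-like secreted protein, was at 7.04, 6.94 and 6.60 against 9.72, 10.08 and 9.45 (difference 2.89, limma adjusted p = 0.223). The 37 interferon and antigen presentation genes had a median of 0.01, and the defensin gene Defb4 and the lysozyme-like Lyg1 lay lower. Lyg1 was at 11.72, 12.09 and 11.55 in normal and at 6.43, 10.85 and 4.97 in hyperplasia (difference -4.37, limma adjusted p = 0.213), with hyperplasia 2 again nearest to normal.

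Markers of cell types outside the epithelium were checked for the same contrast. Of 17 endothelial genes none passed the test, 5 were over 1 upwards, 9 lay above all normal mice and none below, and their mean was 6.14 to 6.36 in normal and 6.68 to 6.99 in hyperplasia. Cdh5, VE-cadherin, was at 6.32, 6.26 and 7.03 against 7.98, 7.68 and 7.38 (difference 1.14, limma adjusted p = 0.19). The part of vessel RNA in the other differences was not tested. Fibroblast genes had a median of -0.01, T and NK cell genes of 0.10 and macrophage and Langerhans genes of 0.21. Of 12 mast cell genes, Tpsab1, a tryptase, differed by 1.90 (limma adjusted p = 0.053), at 4.67, 4.96 and 5.29 against 6.87, 7.31 and 6.43, but the mast cell protease Cpa3 overlapped at 5.69 to 8.04 and 5.98 to 7.95. Hemoglobin genes lay lower in hyperplasia 2 and 3, with Hbb-b1 at 7.58 and 7.15 against 10.03 to 11.25 in normal and 10.05 in hyperplasia 1.

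Genes of the Wnt and Notch pathways and of the circadian clock mostly lay slightly lower. Over all genes, 8.96% lay below all normal mice and 7.08% above. Of 39 Wnt pathway genes 9 lay below and none above all normal mice, with a median of -0.17. Fzd3, a Wnt receptor, was at 7.48, 7.50 and 7.26 in normal and at 6.01, 6.04 and 6.10 in hyperplasia (difference -1.37, limma adjusted p = 0.283), tight within both groups. Of 25 Notch genes 6 lay below and none above, with a median of -0.21, among them Dll1, a ligand, by -0.64. Medians of the sensory receptor families were similar, at -0.15 over 1083 olfactory and -0.17 over 273 vomeronasal receptor genes. In the Wnt and Notch lists and in both receptor families, normal 1 had the highest mean. Circadian clock genes had a median of -0.42 over 19 genes, which was -0.13 without hyperplasia 2. Differences were negative in 15 of them and positive in 4. Dbp, an output factor, was at 8.34, 8.12 and 8.35 against 7.52, 7.10 and 7.96. Arntl differed the other way, at 6.46, 6.14 and 5.91 against 6.44, 7.24 and 6.53 (difference 0.56, limma adjusted p = 0.597). The hour at which each mouse was killed is not given in the sources used here.

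Genes of protein turnover lay slightly higher. Of 36 proteasome genes 33 differences were positive, and the median was 0.35. Above all normal mice lay 14 and below them none, where 7.08% and 8.96% of all genes did. Psma1, a subunit of the outer ring, was at 9.41, 9.52 and 9.81 against 10.50, 10.15 and 10.28 (difference 0.73, limma adjusted p = 0.224). Of 32 respiratory chain genes 26 differences were positive, with a median of 0.19. Their mean was 9.09, 9.03 and 9.22 in normal and 9.5, 9.22 and 9.18 in hyperplasia, so only hyperplasia 1 stood clearly above the normal mice. The 55 ribosomal protein genes had a median of 0.27. Over the alternatives the median ran from 0.27 to 0.40 for the proteasome and from 0.14 to 0.26 for the respiratory chain. Normalizing the values again moved the median of all genes from -0.04 to 0.00.

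MicroRNA genes are read on this array through their precursors. Mir31, known as raised in squamous cancers, was at 5.45, 5.34 and 4.89 in normal and at 8.33, 5.80 and 8.94 in hyperplasia (difference 2.46, limma adjusted p = 0.228). Hyperplasia 2 lay just above normal 1 there, and the other hyperplasia mice far above. Without hyperplasia 2 the gene passed, with a difference of 3.41 (limma adjusted p = 0.00278), the 1 of 24 alternative fits in which it did. That fit leaves out the hyperplasia mouse nearest to normal, so it adds no support for the rise. Over the 24 fits the limma adjusted p ran up to 0.525. Members of the miR-200 family, which keep epithelial cells from mesenchymal change by repressing Zeb1 and Zeb2, lay lower: Mir200a was at 6.39, 5.23 and 5.81 against 4.71, 4.74 and 5.18 (difference -0.93, limma adjusted p = 0.317) and Mir200c at 7.35, 6.59 and 6.69 against 5.57, 6.29 and 6.05 (difference -0.91, limma adjusted p = 0.334). Mir141 overlapped through normal 3. All 548 microRNA genes had a median of -0.14, and normal 1, which had the highest 5th percentile of the arrays (3.38), also had the highest mean over them (5.01).

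The mature sequences of these genes from RefSeq (GRCm38.p6) are shown because the seed, bases 2 to 8 in capitals, sets which transcripts they bind. The seeds of miR-200a and miR-141 are the same, and that of miR-200c differs from them at a single base. The array cannot say which arm was made.
miR-31-5p: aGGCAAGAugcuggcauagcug
miR-200a-3p: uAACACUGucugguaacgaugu
miR-141-3p: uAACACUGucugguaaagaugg
miR-200c-3p: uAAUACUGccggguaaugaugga

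The levels of the called genes in dysplasia and tumor are given side by side, since these contrasts share the 3 normal mice. S100a9 was 5.31 above normal in hyperplasia, 6.53 in dysplasia and 6.32 in tumor, and S100a8 4.27, 5.31 and 4.99. Slc7a11 stood at 3.44, 3.05 and 3.22 and Lrrc8b at 1.47, 1.70 and 1.79 above normal. Apex2 stood at 1.70, 1.24 and 1.05, its highest difference being that of hyperplasia. Cyp2f2 stood at -4.11, -3.12 and -3.77, Slc10a4l at -4.59, -4.56 and -4.84 and Gngt1 at -3.70, -3.38 and -3.69. Fmo2 stood at -3.96, -5.30 and -5.24 and Tmem45a2 at -3.84, -5.23 and -4.74. The step from hyperplasia to the later stages was not tested here for these genes.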

How the data were processed

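RNA from laser-microdissected tongue epithelium was hybridized to Affymetrix mouse gene arrays, 1 per mouse. The authors quantile-normalized and summarized the scans by RMA, and the deposited values are log2 expression values of 24479 probe sets, used as given. RMA shrinks differences of dim genes, and array values carry no read depth; the number of arrays limits the precision. Nothing on the labels beyond the mouse and its age separates replicates.

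Probe sets with 1 gene symbol numbered 23281, and 1198 had none; where a symbol had more than 1 probe set, the brighter was kept, which left 24477 genes. limma 3.58.1 in R 4.3.3 fitted 4 group means over 12 arrays, and the contrast hyperplasia minus normal was adjusted by Benjamini-Hochberg at 0.05. In simulated data limma recovered 28.4% of genes changed by 1, 82.1% by 2 and 100% by 4 on the log2 scale. With 24477 genes simulated, it made 19, 55 and 66 right calls at these sizes and 7 false calls among the unchanged genes in this contrast. In the measured data, 29 genes were over 2 upwards and 69 downwards, while 16 genes were called in all. Whether these recovery rates hold for the measured arrays was not tested. Summaries used Python 3.11.15, numpy 2.4.6, pandas 2.3.3 and scipy 1.17.1. The 55 gene lists, with 1315 measured of 1396 members, and the genes compared were chosen with earlier results of these data known. Named were all called genes, the 12 largest rises and 12 largest falls without overlap, the defining members of each list with up to 4 others of largest moderated t, and up to 2 of each family; RefSeq (GRCm38.p6) gave gene order, promoters and microRNAs. Equal replicate numbers did not pair the samples (correlations of deviations 0.0204, -0.00112 and -0.0218). Alternatives were other scalings, filters, covariates, a replicate block, left-out mice and the methods' unadjusted test.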

Additional observations from a re-analysis of the deposited data

How the results depend on the processing

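Against 5 genes called higher and 11 lower, limma called 6 lower when only the 6 samples were fitted, and 6 lower and 3 higher with RNA integrity as a covariate. With the replicate number as a block, 4 were called higher and 6 lower, although the numbers share no pairing in the labels. A mean-dependent prior gave 9 higher. The methods' t-test gave 930 higher and 1151 lower unadjusted, and 0 and 0 after Benjamini-Hochberg, where limma had 997 and 1393 at an unadjusted p under 0.05. Leaving out single mice gave 2 to 17 called higher and 3 to 56 lower. The most came without hyperplasia 2 (17 and 56) and normal 3 (4 and 32), the fewest without hyperplasia 3 (2 and 3), normal 1 (2 and 4), normal 2 (3 and 5) and, among the lower calls, hyperplasia 1 (6) and dysplasia 3 (7). Without 1 of the 6 mice there were 318 to 391 genes over 1 upwards and 408 to 589 downwards, and 2600 to 3193 genes above and 2937 to 4011 below all normal mice, the last counts being higher since fewer mice were compared. Without the 30% dimmest genes, 268 genes were over 1 downwards. At a difference over 2 the counts were 29 and 69. List medians kept their sign under all alternatives in 36 of 55 lists, and 51 of 330 medians without 1 mouse moved by more than the spread between replicates. The median of skeletal muscle genes ran from -0.88 to 0.55, and that of T and NK cell genes was -0.01 without hyperplasia 2.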
